A study of Mus musculus with 16 samples.

Results

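The genes that encode voltage-gated sodium and calcium channels and potassium channels were examined in the brain of mice of 2 genotypes and 2 ages. Members were the protein-coding genes whose symbols start with Kcn, Cacn, or Scn followed by a digit, without Kcne2, Kcnj8 and Kcnj13. Of 131 such genes in the count table, 112 reached 10 counts in 2 or more mice of any 1 group and were kept, out of 16831 genes kept in all. The 4 groups were wild-type mice at 3 months (mice 9 to 12), V338Y mice at 3 months (mice 13 to 16), wild-type mice at 19 months (mice 12 to 15) and V338Y mice at 19 months (mice 17 to 20), and the numbers name different animals at the 2 ages. V338Y mice carry the substitution V338Y in both copies of MRPS5, a small-subunit protein of mitochondrial ribosomes, as a knock-in that every cell holds from conception, on the C57/BL6 background. Wild-type mice of that background were the controls, and no group was treated. The labels give brain as the tissue, with an extraction protocol for muscle, and the study's methods name cortex of female mice. The question was how the RNA of each channel family differed between ages and genotypes.

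Voltage-gated channels open their pore when the membrane depolarizes. Sodium channels carry the upstroke of the action potential, calcium channels couple it to transmitter release and to gene regulation, and potassium channels repolarize the cell or hold it near rest. Most of these channels are complexes in which a pore-forming subunit is accompanied by auxiliary subunits that set its gating and its delivery to the membrane, and a few potassium channels belong to astrocytes, microglia or vessels rather than neurons.

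Levels are given as CPM, counts scaled to a common library total, after TMM normalization over all 16 mice, and, between genes, as CPM per kilobase of exon. Changes are log2 fold changes ± SE with n = 4 mice in each group, and a gene was called at an adjusted p under 0.05 in edgeR's quasi-likelihood test, adjusted over all genes kept in that comparison. Total counts were between 6181448 and 19601664 per mouse. All 12 neuron markers were kept, and their summed level was between 6923 and 7304 CPM in young and between 6300.5 and 6579.5 CPM in old wild-type mice, and between 6310 and 7335 CPM and between 6275 and 6728 CPM in V338Y mice. The libraries of the 2 ages differed in more than age. The Y-linked transcript Ddx3y was between 96.8 and 128 CPM in every young mouse and at 0 in every old one, and Xist was between 0.444 and 1.195 CPM in the young and between 705 and 1183 CPM in the old, so age and sex cannot be told apart. Cerebellum markers summed to between 612 and 1524 CPM in 7 of the 8 young mice, to 113 CPM in young V338Y mouse 14, and to between 101 and 117 CPM in the 8 old mice. Gabra6, which defines cerebellar granule cells, was at 1.41 CPM in mouse 14, between 59.9 and 173 CPM in the other young mice and at most 0.490 CPM in the old. Endothelial markers summed to between 241 and 267 CPM in the young and between 1124 and 1359 CPM in the old mice, mural markers to between 199 and 248 CPM and between 843 and 1032 CPM, and astrocyte markers to between 4013 and 4768 CPM and between 7225 and 8662 CPM. Of the neuron markers, 3 rose and 8 fell in wild type (median log2 fold change -0.47), and 3 rose and 6 fell in V338Y (median -0.18). The 7 markers of excitatory neurons summed to between 1171 and 1510 CPM in the young and between 1673 and 2179 CPM in the old mice, with 3 higher and 3 lower in wild type, and 3 and 2 in V338Y. The 8 markers of inhibitory neurons summed to between 949 and 1094 CPM and between 702 and 770 CPM, with 6 lower in wild type, 5 lower in V338Y and none higher. The part of these differences in the age changes of channel genes was not tested, except where values are given with the cerebellum score, the mean level of cerebellum markers, as a covariate or with mouse 14 as the only young mouse. In bulk tissue, fewer cells of a type and less RNA per cell cannot be told apart.

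The level per length spanned more than 3 orders of magnitude among the members. Among the highest in 3-month-old wild-type mice were Kcnab2, the beta subunit of Kv1 channels, at 64.6 CPM per kilobase, Scn2b, a beta subunit of sodium channels, at 60.8, the two-pore channel Kcnk1 at 51.6 and Kcna1 (Kv1.1) at 46.8. Among pore-forming sodium channels the order was Scn2a at 42.8 CPM per kilobase, Scn1a at 35.2 and Scn8a at 20.7. The lowest levels were those of Scn10a, Kcnn4, Kcnmb1 and Kcnq1, at between 0.0440 and 0.161 CPM per kilobase. Summed over all 112 members, the level was 9214 ± 141 CPM (SD, n = 4) in young wild-type, 9550.5 ± 500.3 CPM in young V338Y, 9535 ± 133 CPM in old wild-type and 9545 ± 256 CPM in old V338Y mice. The differences between these sums were smaller than the spread among young V338Y mice.

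**Figure D1:**
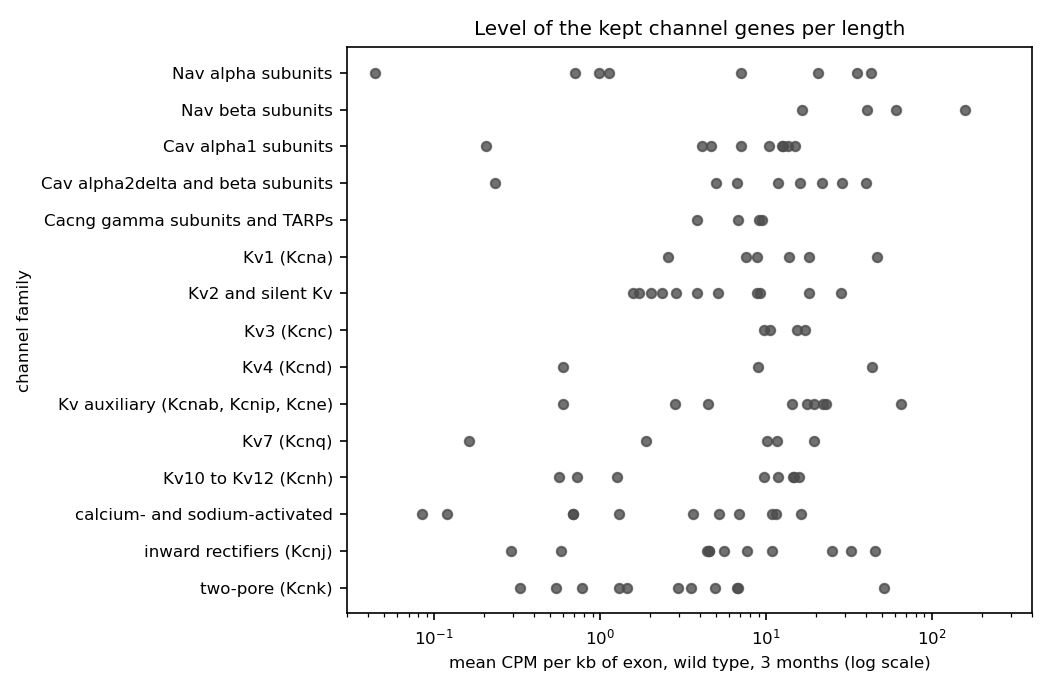
Mean level of each of the 112 kept channel genes in 3-month-old wild-type mice (n = 4), in CPM per kilobase of exon on a log scale, by family. Each point is 1 gene, and the lowest lie near 0.0440 CPM per kilobase.

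Of the 19 members left out, 15 had between 1 and 11 counts in their highest mouse, among them Scn4a, the skeletal muscle sodium channel, with at most 11 counts. Cacng6, Cacng7, Cacng8 and Kcnk16 were listed at 0 in all 16 mice. Cacng7 and Cacng8 encode regulators of AMPA receptors that are known from brain, and an entry of 0 in this table can be a failed count.

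In wild-type mice, the RNA of most channel genes differed between 19 and 3 months, with about as many members higher as lower. Kcnq3, a gene of the M-current, the sodium channel Scn8a, the calcium-activated potassium channel Kcnma1 and the astrocyte potassium channels Kcnj10 and Kcnj16 were higher in old mice. Kcnd2 and its partners Kcnip1 and Kcnip4, 3 of the sodium channel beta subunits, Kcnt1, and Kcng4 and Kcnk10 were lower. In all, 81 of the 112 members (72.3%) were called, where 62.8% of the 16101 genes tested were. Of these, 43 were higher and 38 lower, and the background was 31.4% of genes higher and 31.5% lower. The levels of the 4 young and 4 old mice did not overlap for 65 members, 58.0%, beside 55.4% of all genes (26.9% higher and 28.6% lower). The median log2 fold change of the members was 0.051, beside -0.0050 over all genes tested. Scaled by library size alone, 35 members were higher and 41 lower in wild type, with 65.2% of all genes called and their median at -0.097. The cerebellum score separates the young and old wild-type mice completely. With it as a covariate, 1 of 112 members was called in wild type, beside 0.708% of all genes. In V338Y, 25 of 111 members were called, beside 26.2% of all genes.

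In V338Y mice, Kcnq3, Scn8a, Kcnma1 and Kcnj16 were also higher, and Kcnd2, Kcnip1, Kcnip4, Kcnt1, Kcng4 and Kcnk10 lower, at 19 months. Of 111 members tested, 46 (41.4%) were called, 27 higher and 19 lower, where 48.8% of the 16770 genes tested were called, 23.1% higher and 25.7% lower. The groups did not overlap for 41 members, 36.9%, beside 44.1% of all genes (22.2% higher and 21.9% lower). The median was 0.020, beside -0.029 over all genes. Scaled by library size alone, 21 members were higher and 26 lower in V338Y, with 52.1% of all genes called and their median at -0.088. Among young V338Y mice, mouse 14 had the lowest and mouse 15 the highest mean level of cerebellum markers.

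**Figure D2:**
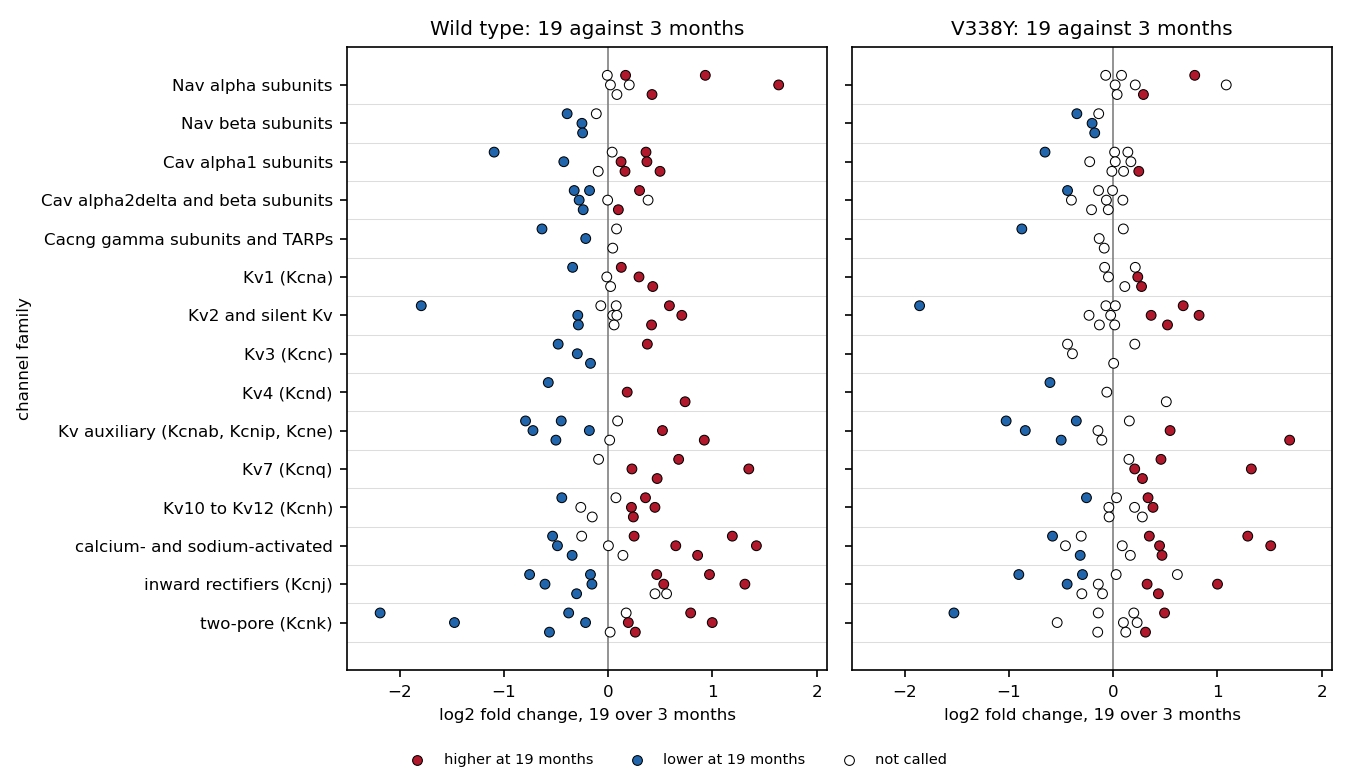
Log2 fold change of each channel gene between 19 and 3 months (x axis) by family (y axis) in wild-type mice (left) and V338Y mice (right), 4 mice a group. Filled points were called at an adjusted p under 0.05 in edgeR's quasi-likelihood test, with 43 higher and 38 lower in wild type and 27 and 19 in V338Y. The points of a family are set apart vertically only to separate them.

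Sodium channels are built from 1 large alpha subunit, which forms the pore, and beta subunits, which are single-pass membrane proteins with an immunoglobulin fold. Of 8 alpha subunits, 4 rose in wild type and 2 in V338Y, and none fell. These 8 include Scn10a, the member of lowest level. It passed the count filter in both genotypes only through the old mice, so the filter favoured a rise. All 4 beta subunits had negative log2 fold changes in both genotypes, and 3 of them fell in each. The 3 were not the same genes, as Scn4b was called only in wild type and Scn3b only in V338Y. The call of Scn3b (adjusted p = 0.0444) was lost without any 1 of 7 mice. Scn8a encodes Nav1.6, the main sodium channel of the mature axon initial segment and node of Ranvier. It was at 325, 321, 345 and 312 CPM in young wild-type mice and at 422, 433, 439 and 437 CPM in old ones, a rise of 0.42 ± 0.040 (adjusted p = 1.80e-10). In V338Y mice it was at 305, 339.8, 404 and 351 CPM and at 412, 432, 427 and 454 CPM, a change of 0.29 ± 0.084, adjusted p = 0.0124. The young and old ranges did not overlap in either genotype. Scn2a (Nav1.2), which precedes Nav1.6 at the initial segment during development and remains in excitatory neurons, was at 514 to 560.5 CPM in young and 561 to 596 CPM in old wild-type mice (0.084 ± 0.040, adjusted p = 0.0662). Scn1a (Nav1.1), the main sodium channel of fast-spiking interneurons, was at 379.5 to 419 CPM and 380.3 to 412 CPM (0.022 ± 0.042, adjusted p = 0.663). Neither passed the test, and the 95% intervals of their changes were 0.0060 to 0.16 and -0.060 to 0.10 on the log2 scale.

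Scn2b, a beta subunit that is linked to alpha subunits by a disulphide bond, was at 275, 295, 274 and 288 CPM in young wild-type mice and at 214, 205, 224 and 213 CPM in old ones (-0.39 ± 0.042, adjusted p = 2.05e-09). In V338Y mice it was at 317, 277, 263 and 271 CPM in the young and at 212, 229.6, 227 and 222 CPM in the old (-0.35 ± 0.062, adjusted p = 5.40e-04). No old mouse reached the level of any young mouse of its genotype. Scn4b, which gives Purkinje and striatal neurons their resurgent current, fell in wild type (-0.25 ± 0.047, adjusted p = 3.04e-05) and was not called in V338Y (-0.14 ± 0.063, adjusted p = 0.0875). Scn7a, the channel called Nax, sits in glia of the organs that sense sodium in the blood. It rose from 7.08 to 9.85 CPM to 13.98 to 17.6 CPM in wild type (0.93 ± 0.11, adjusted p = 2.49e-08) and from 4.64 to 8.92 CPM to 11.3 to 13.03 CPM in V338Y (0.78 ± 0.15, adjusted p = 0.00103).

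Among calcium channel alpha1 subunits, 5 of 9 rose and 2 fell in wild type, and 1 rose and 1 fell in V338Y. These 9 include Cacna1s, of low level, which passed the count filter in wild type only through the young mice. Cacna1e (Cav2.3, the R-type channel) rose from 319, 316, 311 and 327 CPM to 412, 451, 452 and 471 CPM in wild type (0.50 ± 0.042, adjusted p = 1.25e-11), with no overlap. In V338Y it was at 286, 346, 408 and 343 CPM and at 402, 412, 415 and 424 CPM, with 1 young mouse inside the range of the old, and its call (0.25 ± 0.095, adjusted p = 0.0497) was lost without any 1 of 6 mice. The L-type channels Cacna1c (Cav1.2) and Cacna1d (Cav1.3), which signal from the membrane to the nucleus, rose in wild type (0.37 ± 0.055, adjusted p = 6.42e-07, and 0.36 ± 0.057, adjusted p = 1.85e-06). In V338Y their changes were 0.10 and -0.011 and neither was called. Cacna1g (Cav3.1), the T-type channel of thalamic relay and cerebellar neurons, was at 96.5, 116, 108 and 98.3 CPM in young and 71.02, 81.7, 77.2 and 82.4 CPM in old wild-type mice (-0.43 ± 0.060, adjusted p = 8.80e-07). It was at 125, 100.1, 173 and 114 CPM in young and 78.9, 83.6, 86.4 and 79.2 CPM in old V338Y mice (-0.65 ± 0.17, adjusted p = 0.0115). Cacna1a (Cav2.1), the P/Q-type channel of Purkinje cells and of most central terminals, was not called in either genotype (-0.095 in wild type and -0.22 in V338Y), and among young V338Y mice it ranged from 117 to 247 CPM.

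The auxiliary calcium channel subunits include the beta subunits, which carry the alpha1 subunit to the membrane, and the alpha2delta subunits, which are bound by gabapentin. Of these 8 genes, 2 rose and 4 fell in wild type, and 1 fell in V338Y. Cacnb4, the gene mutated in the lethargic mouse, was at 341, 362, 365 and 368 CPM in young and 295, 276, 282 and 285 CPM in old wild-type mice (-0.33 ± 0.040, adjusted p = 2.97e-08). In V338Y it was at 370.3, 347, 414 and 393 CPM in the young and 274, 273, 293 and 293 CPM in the old (-0.44 ± 0.069, adjusted p = 2.27e-04). The ranges did not overlap in either genotype, and mouse 14 was the lowest of the young V338Y mice. Cacnb1 and Cacnb2 fell in wild type (-0.28, adjusted p = 1.66e-04, and -0.18, adjusted p = 0.00628). Cacna2d3 rose in wild type (0.30 ± 0.049, adjusted p = 2.99e-06) and was not called in V338Y (0.094 ± 0.053, adjusted p = 0.160). Among the 4 kept gamma subunits and AMPA receptor regulators, Cacng5 fell in wild type (-0.63 ± 0.091, adjusted p = 4.08e-07) and in V338Y (-0.87 ± 0.14, adjusted p = 4.60e-04), and Cacng2 (stargazin) fell in wild type (-0.21 ± 0.069, adjusted p = 0.00760). The call of Cacng2 was lost without old wild-type mouse 12 or young wild-type mouse 11.

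The Kv families differed in direction. Of 6 Kv1 genes, most of which act in axons, 3 rose and 1 fell in wild type, and 2 rose in V338Y. Kcna1 (Kv1.1) was at 207, 215, 245 and 228 CPM in young and 254, 279, 273 and 285 CPM in old wild-type mice (0.30 ± 0.049, adjusted p = 6.25e-06), and Kcna2 (Kv1.2) at 90.1, 92.3, 94.03 and 84.6 CPM and 117, 125, 119 and 121 CPM (0.43 ± 0.049, adjusted p = 6.09e-09). Both were higher in every old than in every young wild-type mouse. In V338Y, mouse 15 was inside or above the range of the old for both, with 319 CPM for Kcna1 and 121 CPM for Kcna2. Kcna1 was not called there (0.21 ± 0.17, adjusted p = 0.320), and Kcna2 was (0.27 ± 0.097, adjusted p = 0.0359), with the call lost without any 1 of the 4 old mice. Of the 11 Kv2 and silent Kv genes, 3 rose and 3 fell in wild type, and 4 rose and 1 fell in V338Y. Kcng4 encodes Kv6.4, an electrically silent subunit that joins Kv2 channels. It was at 32.6, 38.2, 36.4 and 33.6 CPM in young and at 11.8, 10.1, 7.15 and 11.5 CPM in old wild-type mice (-1.79 ± 0.10, adjusted p = 5.61e-14). Young V338Y mice had 49.04, 14.8, 57.7 and 39.7 CPM, and old ones 14.4, 10.2, 8.78 and 11.9 CPM (-1.86 ± 0.45, adjusted p = 0.0147). Mouse 14 lay close to the old mice, and the other 3 young V338Y mice lay far above them.

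Kv3 channels give fast-spiking neurons, such as parvalbumin interneurons and cerebellar granule and Purkinje cells, their brief action potentials. In wild type all 4 were called, 3 lower and 1 higher, and in V338Y none was called, with log2 fold changes between -0.44 and 0.21. Summed markers of inhibitory neurons and of cerebellum were lower in old mice as given above. Kcnc1 (Kv3.1) fell from 160.2, 156, 172 and 159.7 CPM to 109.8, 117, 122 and 112 CPM in wild type (-0.48 ± 0.048, adjusted p = 3.47e-10), without overlap. Kcnc2 (Kv3.2) rose from 103 to 121 CPM to 137 to 143 CPM (0.38 ± 0.049, adjusted p = 9.24e-08). Young V338Y mice had 154, 116, 236 and 178 CPM of Kcnc1. Mouse 14 was lowest and mouse 15 highest, as they were for cerebellum markers. Old V338Y mice had 120.4 to 137 CPM of Kcnc1, so mouse 14 was below the old mice.

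Kcnd2 encodes Kv4.2, the pore of the A-type current of dendrites, and Kcnip1 to Kcnip4 encode KChIPs, calcium-binding proteins that attach to Kv4 channels. The promoters of 80 of the 112 members were in the RefSeq table used here. The 250 bases before the 5'-most start in that table are shown for Kcnd2 and Kcnip1, which were lower together in old mice, and for Kcnip3, which differed between the genotypes. They are read 5′ to 3′ on the strand of the gene, from GRCm38.p6, at chr6:21215096-21215345, plus strand for Kcnd2, chr11:33993194-33993443, minus strand for Kcnip1 and chr2:127522095-127522344, minus strand for Kcnip3, and capitals mark the GC box GGGCGG on either strand.
Kcnd2: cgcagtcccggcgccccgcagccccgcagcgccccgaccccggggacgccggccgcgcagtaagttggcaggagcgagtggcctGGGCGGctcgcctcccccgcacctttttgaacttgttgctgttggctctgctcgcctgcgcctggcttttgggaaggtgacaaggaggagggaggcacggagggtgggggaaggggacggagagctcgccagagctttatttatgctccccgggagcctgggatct
Kcnip1: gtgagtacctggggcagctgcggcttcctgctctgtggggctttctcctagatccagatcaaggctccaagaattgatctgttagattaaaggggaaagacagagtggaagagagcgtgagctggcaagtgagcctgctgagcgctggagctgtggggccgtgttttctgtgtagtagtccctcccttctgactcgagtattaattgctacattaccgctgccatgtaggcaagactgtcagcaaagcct
Kcnip3: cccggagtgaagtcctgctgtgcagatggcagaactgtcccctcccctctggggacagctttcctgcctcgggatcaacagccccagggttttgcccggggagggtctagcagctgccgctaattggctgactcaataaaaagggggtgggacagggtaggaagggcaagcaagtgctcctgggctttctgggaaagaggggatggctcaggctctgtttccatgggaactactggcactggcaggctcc
The window of Kcnd2 holds 1 GC box and 68.8% G and C, that of Kcnip1 none and 52.8%, and that of Kcnip3 none and 60.0%. The starts used for Kcnd2 and Kcnip1 lie 157 and 41 bases from the GENCODE start of the gene. The bases after these 2 starts were not found in a GENCODE transcript of the gene, while those of Kcnip3 were. Over the 80 members, 42 windows (52.5%) hold GGGCGG on either strand, beside 33.0% of the windows of 27025 genes of all kinds used from the table, with the same exclusions. The TATA motif TATAAA, searched on both strands, is in 2 of the 80 (2.50%), beside 12.98%, and TGACGTCA, the cAMP response element, in 0 of the 80, beside 1.60%. The median G and C content is 62.0% over the members and 52.0% over all. A match is a stretch of letters and no measured site.

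Of the 9 Kv auxiliary genes, which include the KChIPs, 2 rose and 5 fell in wild type, and 2 rose and 4 fell in V338Y. Kcnd2 was at 206, 216, 232 and 241 CPM in young wild-type mice and at 148, 151, 143 and 155 CPM in old ones, a fall with -0.57 ± 0.048, adjusted p = 7.37e-12. In V338Y it was at 237, 168, 264 and 233 CPM in the young and 151, 147, 153 and 147 CPM in the old (-0.61 ± 0.12, adjusted p = 0.00281). Its young and old ranges were apart in both genotypes, with mouse 14 between the old mice and the other young. Kcnip1 was at 24.7, 30.5, 29.98 and 26.2 CPM in young and 16.7, 15.3, 16.7 and 15.4 CPM in old wild-type mice (-0.79 ± 0.085, adjusted p = 1.88e-09). It was at 33.01, 28.1, 32.8 and 31.2 CPM in young and 14.7, 15.5, 16.04 and 15.4 CPM in old V338Y mice (-1.03 ± 0.077, adjusted p = 4.38e-07). Every old mouse thus had less Kcnip1 than any young one, mouse 14 included. Kcnip1 shares its locus with Kcnmb1 on the opposite strand, antisense genes are annotated over Kcnd3 and Kcnmb4, and how the counting treated strand is not given in the sources used here. Kcnip4 was at 60.2, 74.04, 72.2 and 73.8 CPM in young and 40.4, 40.98, 40.5 and 49.9 CPM in old wild-type mice (-0.72 ± 0.071, adjusted p = 2.49e-09). The values in V338Y were 73.8, 72.04, 73.9 and 73.9 CPM in the young and 40.6, 42.99, 43.2 and 37.98 CPM in the old (-0.84 ± 0.058, adjusted p = 2.02e-07). Of the remaining Kv4 genes, Kcnd3 (Kv4.3) and Kcnd1 (Kv4.1) rose in wild type (0.18 and 0.74) and were not called in V338Y (-0.060 and 0.51). Kcnip2 fell in wild type (-0.18 ± 0.070, adjusted p = 0.0308) and was not called in V338Y (-0.11), and Kcnip3 was not called with age in either (0.015 and -0.14). Dpp6 and Dpp10, membrane proteins that complete the Kv4 complex and are no members here, fell in wild type (-0.23, adjusted p = 3.70e-05, and -0.17, adjusted p = 0.00164) and in V338Y (-0.34, adjusted p = 0.000658, and -0.26, adjusted p = 0.00185).

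Kcnab1 and Kcnab3 encode beta subunits of Kv1 channels that can speed inactivation. Kcnab1 was at 123, 125, 120.1 and 124 CPM in young and 83.2, 89.2, 84.6 and 88.9 CPM in old wild-type mice (-0.50 ± 0.047, adjusted p = 1.21e-10), and at 128, 125.8, 137 and 131 CPM and 95.6, 91.8, 97.6 and 87.2 CPM in V338Y (-0.50 ± 0.060, adjusted p = 2.58e-05). The 8 young mice were thus all above the 8 old ones. Kcnab3 fell in wild type (-0.45 ± 0.076, adjusted p = 1.23e-05) and in V338Y (-0.35 ± 0.12, adjusted p = 0.0288), and an annotated antisense gene, Kcnab3os, overlaps it. Kcnab2, the most abundant of these subunits, was not called in either genotype (0.091 ± 0.044, adjusted p = 0.0688, and 0.16 ± 0.093, adjusted p = 0.187).

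Kv7 channels of neurons form the M-current, which holds neurons below threshold and is closed by muscarinic receptors. Of 5 genes, 4 rose and none fell in each genotype. They include Kcnq1, of low level, which passed the count filter in wild type only through the old mice. Kcnq3 (Kv7.3) was at 149.7, 144, 159 and 143 CPM in young and 211, 255, 235 and 246 CPM in old wild-type mice (0.68 ± 0.052, adjusted p = 2.06e-11). It was at 129, 183, 184 and 153 CPM in young and 216, 221, 225 and 237 CPM in old V338Y mice (0.46 ± 0.11, adjusted p = 0.00491). Its young and old ranges were apart in both genotypes. Kcnq5 rose in wild type (0.23 ± 0.051, adjusted p = 2.52e-04) and V338Y (0.21 ± 0.077, adjusted p = 0.0388). The summed level of the family was 561 ± 25.2 CPM (SD, n = 4) in young wild-type, 611 ± 64.3 CPM in young V338Y, 781 ± 18.3 CPM in old wild-type and 768 ± 34.3 CPM in old V338Y mice. Ank3 and Ank2, ankyrins of which Ank3 anchors Kv7 and sodium channels at the initial segment, also rose in wild type (0.88, adjusted p = 2.82e-14, and 0.63, adjusted p = 1.09e-13) and in V338Y (0.70, adjusted p = 0.000686, and 0.60, adjusted p = 2.20e-05).

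**Figure D3:**
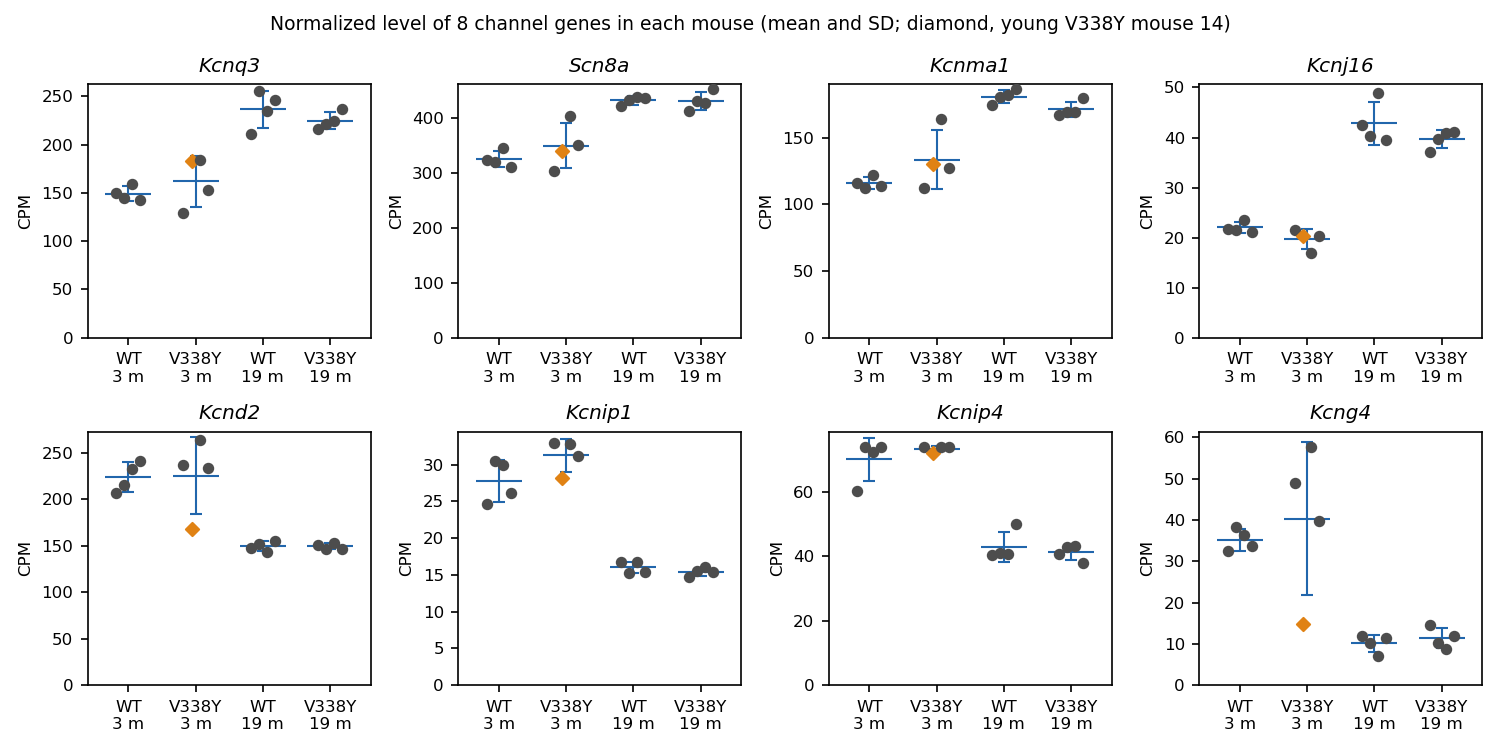
Level in CPM of 8 channel genes in each of the 16 mice, by group, with the mean and SD of each group (n = 4) in blue and young V338Y mouse 14 as a diamond. Kcnq3, Scn8a, Kcnma1 and Kcnj16 were higher, and Kcnd2, Kcnip1, Kcnip4 and Kcng4 lower, in the old mice, and mouse 14 lies near the old mice for Kcng4, at 14.8 CPM, but among the young for Kcnj16, at 20.3 CPM.

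Among the 8 Kcnh genes, of the EAG, ERG and ELK channels, 4 rose and 1 fell in wild type, and 2 rose and 1 fell in V338Y. Kcnh2 (ERG1) fell in both (-0.44 ± 0.069, adjusted p = 1.70e-06, and -0.25 ± 0.057, adjusted p = 0.00269), and Kcnh5 (EAG2) rose in both (0.36 ± 0.055, adjusted p = 1.38e-06, and 0.38 ± 0.076, adjusted p = 0.00123). Of the 11 calcium- and sodium-activated genes, 5 rose and 3 fell in wild type, and 5 rose and 2 fell in V338Y. The rises include Kcnn4 and Kcnmb1, of low level, which passed the count filter in wild type only through the old mice. Kcnma1 encodes the BK channel, which ends action potentials in answer to calcium. It was at 116, 112, 122 and 114 CPM in young and 175, 180.2, 182 and 186 CPM in old wild-type mice (0.65 ± 0.045, adjusted p = 1.11e-13), and at 112, 131, 164 and 127 CPM and 167, 169, 169 and 179 CPM in V338Y (0.35 ± 0.11, adjusted p = 0.0194). The ranges did not overlap, and the call in V338Y was lost without old mouse 20 (adjusted p = 0.0520). Kcnmb4, the neuronal BK beta subunit, fell in wild type (-0.35 ± 0.074, adjusted p = 1.54e-04) and V338Y (-0.31 ± 0.068, adjusted p = 0.00212), so the pore and its accessory subunit went opposite ways. Kcnt1 and Kcnt2, the sodium-activated channels Slack and Slick, also did. Kcnt1 fell from 146 to 162 CPM to 104 to 113 CPM in wild type (-0.49 ± 0.046, adjusted p = 1.57e-10) and from 127 to 213 CPM to 105 to 115 CPM in V338Y (-0.58 ± 0.15, adjusted p = 0.00995). Kcnt2 rose (0.25 ± 0.053, adjusted p = 1.60e-04 in wild type, and 0.47 ± 0.097, adjusted p = 0.00206 in V338Y). Kcnn3 (SK3) rose in wild type (0.86 ± 0.12, adjusted p = 2.25e-07) and V338Y (0.45 ± 0.11, adjusted p = 0.00446), and Kcnn1 (SK1) was not called (0.0026 and 0.088).

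Inward rectifiers set the resting potential, and of 11 genes, 4 rose and 5 fell in wild type and 3 rose and 3 fell in V338Y. Kcnj10 (Kir4.1) and Kcnj16 (Kir5.1) form the channel with which astrocytes take up potassium. Kcnj16 was at 21.8, 21.6, 23.6 and 21.2 CPM in young and 42.5, 40.2, 48.99 and 39.6 CPM in old wild-type mice (0.97 ± 0.075, adjusted p = 1.48e-12), and at 21.5, 20.3, 16.9 and 20.3 CPM and 37.2, 39.8, 40.8 and 41.2 CPM in V338Y (1.002 ± 0.074, adjusted p = 4.17e-07). The old mice were above the young ones, without overlap, in both genotypes. Kcnj10 was at 58.6, 48.2, 62.9 and 64.4 CPM in young and 130.3, 156, 145 and 143 CPM in old wild-type mice (1.31 ± 0.084, adjusted p = 1.15e-08). In V338Y it was at 82.2, 70.5, 138 and 91.6 CPM in the young and 135, 142, 134 and 179 CPM in the old, where mouse 15 fell among the old and the change was not called (0.62 ± 0.23, adjusted p = 0.0601). Astrocyte markers were higher in the old mice as given above. The G protein-gated channels, which are opened by inhibitory receptors, differed among themselves. Kcnj3 (GIRK1) fell in wild type and V338Y (-0.30 ± 0.045, adjusted p = 9.43e-07, and -0.29 ± 0.060, adjusted p = 0.00152), and Kcnj6 (GIRK2) rose in both (0.53 ± 0.068, adjusted p = 5.21e-08, and 0.43 ± 0.091, adjusted p = 0.00184). Kcnj9 (GIRK3) fell in wild type (-0.17 ± 0.049, adjusted p = 0.00341) and was not called in V338Y (-0.10). Kcnj11 (Kir6.2), the pore of the ATP-sensitive channel, fell in both (-0.61 ± 0.094, adjusted p = 1.71e-06, and -0.44 ± 0.11, adjusted p = 0.00467). Kcnj12 (Kir2.2) was at 19.6, 19.98, 20.8 and 23.5 CPM in young and 12.7, 11.01, 12.6 and 13.7 CPM in old wild-type mice (-0.75 ± 0.094, adjusted p = 3.36e-08), and at 26.2, 14.4, 30.5 and 23.01 CPM in young and 14.2, 11.3, 11.9 and 13.2 CPM in old V338Y mice (-0.90 ± 0.22, adjusted p = 0.00960). Mouse 14, at 14.4 CPM, was close to the old values there.

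Channels of the two-pore family, K2P, carry the leak current. Of 11 genes, 4 rose and 5 fell in wild type, and of 10 tested in V338Y, 2 rose and 1 fell. The 11 include Kcnk15, of low level, which passed the count filter in wild type only through the young mice. Kcnk10 (TREK-2) was at 19.97, 27.7, 25.99 and 29.02 CPM in young and 10.1, 9.77, 8.35 and 8.29 CPM in old wild-type mice (-1.47 ± 0.11, adjusted p = 1.75e-12). In V338Y it was at 31.8, 11.3, 37.1 and 29.3 CPM in the young and 7.98, 8.93, 9.77 and 11.03 CPM in the old (-1.53 ± 0.38, adjusted p = 0.0143), again with mouse 14 next to the old. Kcnk1 (TWIK-1), the most abundant, fell in wild type (-0.22 ± 0.049, adjusted p = 3.25e-04) and was not called in V338Y (-0.14 ± 0.064, adjusted p = 0.0830). Kcnk13 (THIK-1), the potassium leak of microglia, was higher in both genotypes (0.26 ± 0.11, adjusted p = 0.0405, and 0.31 ± 0.088, adjusted p = 0.0108), and the call in wild type was lost without any 1 of 5 mice. The 8 microglia markers were all called higher in old mice of both genotypes (medians 0.93 and 0.82). They summed to between 275 and 293 CPM in young and between 533 and 563 CPM in old wild-type mice, and to between 223 and 312 CPM and between 489 and 533 CPM in V338Y mice, and their part in the change of Kcnk13 was not tested. Kcnk6 (TWIK-2) rose from 2.71 to 3.53 CPM to 6.05 to 6.59 CPM in wild type (0.998 ± 0.16, adjusted p = 2.57e-06) and in V338Y (0.49 ± 0.14, adjusted p = 0.0127). Of the 10 kept members known from glia or vessels (Kcnj10, Kcnj16, Kcnk13, Kcnk6, Kcnn4, Kcna3, Kcnmb1, Cacng4, Kcnj2 and Kcna5), 7 rose and 1 fell in wild type and 7 rose in V338Y, with medians of 0.72 and 0.41. This list was written with earlier results known. Over all genes tested, 31.4% rose and 31.5% fell in wild type, and 23.1% rose and 25.7% fell in V338Y. The medians over all genes were -0.0050 and -0.029. In V338Y, the call of Kcna3 (adjusted p = 0.0455) was lost without any 1 of 5 mice, and that of Kcnj2 without old mouse 18. In wild type, the call of Kcna5 was lost without any 1 of 4 mice, and that of Kcnmb1 without young mouse 10. Among the rises, Kcnn4 in both genotypes and Kcnmb1 in wild type passed the count filter only through the old mice, so the filter favoured their rise.

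Grouped by their place in the channel, a grouping made after the values were seen, more auxiliary subunits were called lower than higher, and more pore-forming subunits higher than lower, in old mice of both genotypes. Of 28 auxiliary genes, 5 rose and 15 fell in wild type (median -0.20), and 3 rose and 10 fell in V338Y (median -0.14). Of 75 pore-forming genes, 36 rose and 20 fell in wild type (median 0.16), and of 74 tested in V338Y, 21 rose and 8 fell (median 0.11). Over all genes tested, 31.4% rose and 31.5% fell in wild type (median -0.0050), and 23.1% and 25.7% in V338Y (median -0.029). The 9 electrically silent Kv genes, which form no channel alone, had 2 higher and 3 lower in wild type and 3 and 1 in V338Y. Auxiliary genes had a shorter exon length, merged over all annotated transcripts of a gene, with a median of 4360 bases beside 5945 for pore-forming ones. With trends on length and GC content removed, the counts in wild type were 4 and 14 for auxiliary (median -0.15) and 30 and 18 for pore-forming genes (median 0.046). Of all genes, 62% were called there, with a median of -0.011. Scaling by library size alone gave 4 and 16 (median -0.29), and 29 and 21 (median 0.069). In that setting 65.2% of all genes were called, and their median was -0.097. With the cerebellum score as a covariate, 26.2% of all genes were called in V338Y and 0.708% in wild type. Pore-forming genes in V338Y then had 4 higher and 6 lower (median 0.080), and auxiliary genes 1 and 10 (median -0.30). In wild type no gene of either class was called. With all 16 mice and that covariate, pore-forming genes had 11 higher and 7 lower in V338Y (median 0.057). They had 18 and 10 in wild type (median 0.090). Auxiliary genes had 1 and 17 in V338Y (median -0.32) and 1 and 16 in wild type (median -0.36). That fit, chosen after seeing the data, called 32.9% of all genes in V338Y and 37.7% in wild type.

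The age changes of the 2 genotypes were measured in separate mice. Of the 81 members called in wild type and the 46 called in V338Y, 43 were called in both, which is 53.1% of the first and 93.5% of the second. All 43 had the same direction, 25 higher and 18 lower. Over all 16040 genes tested in both genotypes, 7108 were called in both, 70.5% of those called in wild type and 88.7% of those called in V338Y, and 99.9% of the 7108 had the same direction. Kcna3, Scn3b and Kcng2 were called in V338Y and not in wild type, at adjusted p between 0.0444 and 0.0498. A gene called in 1 genotype and not in the other is not shown to differ between them. The difference of the age effects was tested in a fit of all 16 mice, in which 0 of 112 members were called by edgeR's quasi-likelihood test, DESeq2 or the likelihood-ratio test, beside 9 of 16831 genes (0.0535%) in the first. An unadjusted p under 0.05 was found for 15 members (13.4%), 6 with a higher and 9 with a lower age effect in V338Y, beside 10.2% of all genes (5.33% and 4.91%). The smallest adjusted p among members was that of Cacna1d, whose age effect in V338Y minus that in wild type was -0.36 (95% interval -0.60 to -0.11, adjusted p = 0.364), followed by Cacna2d3 at -0.19 (-0.32 to -0.052) and Kcnma1 at -0.28 (-0.49 to -0.069). The interval of Kcnj10 was -1.17 to -0.16 (adjusted p = 0.417).

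Young V338Y mouse 14 lay closer to the old mice in cerebellum transcripts than the other young mice did, and was used alone in an analysis chosen after the values were seen. Its mean level of cerebellum markers was 2.38 on the log2 CPM scale, still above the 0.84 to 1.57 of the old mice, beside 4.90 to 5.83 in the other young mice. Cbln3 and Pcp2, further cerebellum markers, were at 2.77 and 1.81 CPM in mouse 14 and at most 0.606 and 0.368 CPM in the old. When it alone stood for the young against the 4 old V338Y mice, its spread was taken to be that of the old group, and 55 of 112 members were called, 23 higher and 32 lower. Of the 16858 genes tested there, 45.7% were called, 23.2% higher and 22.6% lower. Of the 46 members called with all 4 young mice, 28 were still called, 14 higher and 14 lower, and none turned. These 2 counts share the old mice. The wild-type comparison shares none, and of its 81 calls, 40 (49.4%) were called in the same direction, 19 higher and 21 lower, 4 (4.94%) in the opposite direction and 37 not. Of the 10047 genes called in wild type and tested there, 65.3% were called in the same and 0.607% in the opposite direction.

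Members, picked after their values were seen, whose change was of similar size with mouse 14 alone included Kcnip1 (-0.86, adjusted p = 1.13e-06), Kcnip4 (-0.80, adjusted p = 9.31e-08), Kcnab1 (-0.43, adjusted p = 2.61e-05), Scn2b (-0.31, adjusted p = 2.32e-04) and Kcnj3 (-0.35, adjusted p = 2.05e-04) among those that fell. Among those that rose they included Kcnj16 (0.98, adjusted p = 7.79e-08), Kcnma1 (0.40, adjusted p = 3.15e-05), Kcnj6 (0.50, adjusted p = 1.37e-04) and Scn8a (0.35, adjusted p = 1.63e-04). A further set shrank. Kcng4 went from -1.86 with 4 young mice to -0.40, adjusted p = 0.133, Kcnk10 from -1.53 to -0.25, adjusted p = 0.206, Kcnj12 from -0.90 to -0.19, adjusted p = 0.258, and Kcnd2 from -0.61 to -0.16, adjusted p = 0.0275. Kcnc2, Kcnk12 and Cacna2d1 were among those called in the opposite direction to wild type. Kcnc2 was 0.38 in wild type and -0.17 with mouse 14, and Kcnk12 was -0.56 and 0.42. Auxiliary genes had 1 higher and 17 lower with mouse 14 alone (median -0.30), and pore-forming genes 22 and 11 (median 0.074). Among the 46 members, the level of mouse 14 lay within the range of the other young mice for 15, within that of the old for 4 and outside both for 27.

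**Figure D4:**
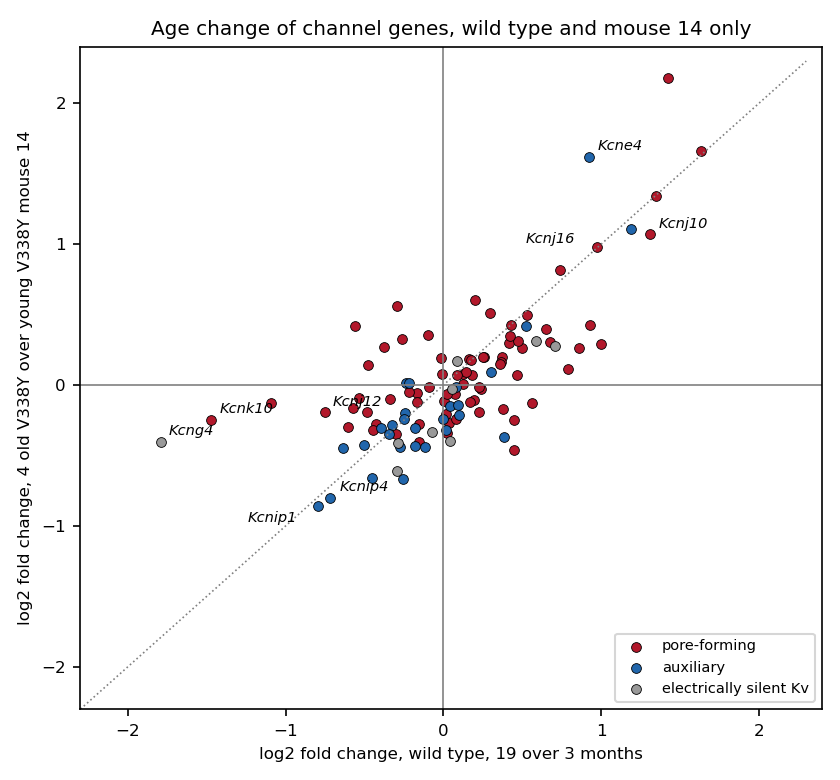
Log2 fold change of each channel gene between 19 and 3 months in wild-type mice (x axis, 4 against 4) and between the 4 old V338Y mice and young V338Y mouse 14 alone (y axis), coloured by class. The 2 axes share no mouse, and Kcnk15, which was not tested with all 4 young V338Y mice, is not plotted. Kcnip1, Kcnip4 and Kcnj16 lie near the dotted line of equal change, and Kcng4 and Kcnk10 lie close to 0 on the y axis.

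Between the genotypes, few channel genes differed. At 19 months, Kcnip3 and Scn7a were lower in V338Y mice, and Cacna1s, which passed the count filter only through those mice, was higher. These were 3 of 111 members (2.70%), where 3.12% of the 16420 genes tested were called, 1.19% higher and 1.92% lower. The median of the members was 0.030, beside -0.00072 over all genes. Kcnip3 encodes KChIP3, also known as DREAM or calsenilin, a calcium-binding protein that acts on Kv4 channels and on transcription. It was at 71.3, 75.4, 87.03 and 82.5 CPM in old wild-type and at 57.96, 56.98, 59.4 and 60.6 CPM in old V338Y mice, a log2 fold change of -0.42 ± 0.055 (adjusted p = 6.94e-06). At 3 months it was at 85.1, 79.6, 74.3 and 75.4 CPM in wild-type and 72.7, 73.8, 60.8 and 51.2 CPM in V338Y mice (-0.27 ± 0.10, adjusted p = 0.926). Every V338Y mouse was below every wild-type mouse of its age, though only the difference at 19 months was called. The call at 19 months held without any 1 of the 8 mice (adjusted p from 1.04e-06 to 0.000170) and in all 10 other settings (from 1.28e-12 to 0.0278).

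Kcnip3 lies on chromosome 2 at chr2:127456498-127522094, on the minus strand, and Mrps5, the gene that carries the knock-in, at chr2:127587222-127606829, 65.1 kb away (GRCm38, GENCODE M21). It is the only member within 20 Mb of Mrps5, of 18 members on chromosome 2. The RNA of Mrps5 itself did not pass the test between the genotypes, with -0.012 ± 0.065 at 19 months (adjusted p = 0.960) and 0.0033 ± 0.068 at 3 months. The other 17 members on the chromosome lie between 20.3 and 112.6 Mb away, and of the 16 of them tested at 19 months, 15 had log2 fold changes between -0.080 and 0.16 and none of these was called. The exception, Scn7a, 60.8 Mb away, was at 14.9, 17.6, 13.98 and 15.9 CPM in old wild-type and 13.03, 12.4, 11.3 and 11.4 CPM in old V338Y mice (-0.39 ± 0.093, adjusted p = 0.0135). Those ranges did not overlap, but the call was lost without old wild-type mouse 13 or old V338Y mouse 19 (adjusted p up to 0.124). It was also lost with all 16 mice in 1 fit (adjusted p = 0.273) and in that fit with the cerebellum score as a covariate (adjusted p = 0.153), and held in 8 of 10 other settings (adjusted p from 0.00492 to 0.273 over the 10). At 3 months the change was -0.25 ± 0.18, adjusted p = 0.926. The 8 endothelial markers summed to between 1248 and 1359 CPM in old wild-type and between 1124 and 1305 CPM in old V338Y mice, and the 8 meningeal markers to between 327 and 399 CPM and between 288 and 354 CPM. Their part in the difference of Scn7a was not tested.

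**Figure D5:**
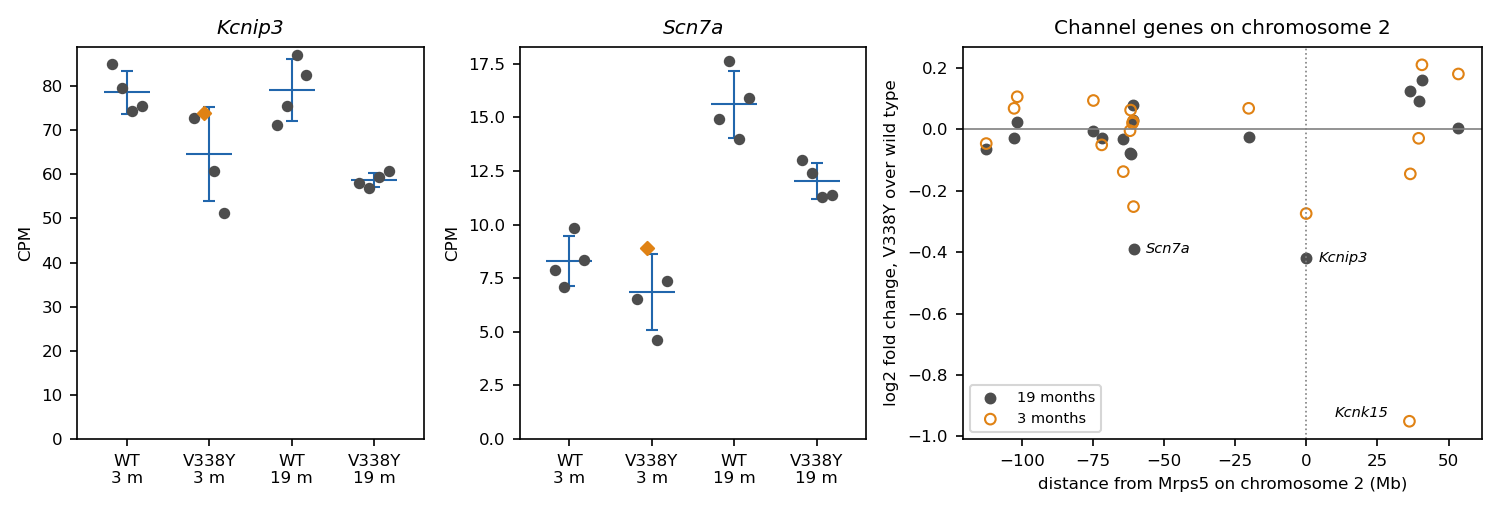
Left and middle, level in CPM of Kcnip3 and Scn7a in each mouse by group, with mean and SD (n = 4) and mouse 14 as a diamond. Right, log2 fold change between V338Y and wild type of the 18 members on chromosome 2 against their distance from Mrps5 in Mb, at 19 months (filled) and 3 months (open), with Kcnip3 next to Mrps5 at -0.42 and -0.27.

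Cacna1s encodes Cav1.1, the calcium channel of skeletal muscle, and was near the floor of detection. At 19 months it passed the count filter only through the V338Y mice, so the filter favoured a higher level there. It was not tested with at least 10 counts in every mouse. It was at 0.967, 0.414, 0.217 and 0.676 CPM in old wild-type and at 1.72, 1.07, 2.04 and 1.04 CPM in old V338Y mice (1.33 ± 0.37, adjusted p = 0.0409), and at 0.662 to 1.97 CPM and 1.05 to 1.61 CPM in the young. The old groups did not overlap, and the call was lost without any 1 of 5 mice (adjusted p up to 0.214). It held in 5 of 9 other settings (adjusted p from 0.00590 to 0.266 over the 9), and was lost with DESeq2 (0.112), with all 16 mice in 1 fit (0.154), in that fit with the cerebellum score as a covariate (0.0728) and with the score in the fit of the 8 mice (0.266). Kcnab3 and Cacna1d, the next by p, were not called (0.22 ± 0.068, adjusted p = 0.0673, and -0.18 ± 0.054, adjusted p = 0.0675). In all, 25 members (22.5%) had an unadjusted p under 0.05 at 19 months, 15 higher and 10 lower, beside 16.2% of all genes (7.66% higher and 8.54% lower), and the groups did not overlap for 15 (13.5%), beside 9.32% of all genes (4.49% higher and 4.83% lower). Of the 33 channel partners, only Hcn2 and Sptbn4 were called at 19 months, where 3.12% of all genes tested were. Hcn2, a pacemaker channel of the h-current, and Sptbn4, a spectrin of the initial segment, were higher in old V338Y mice (0.20, adjusted p = 0.00453, and 0.20, adjusted p = 0.00238). At 3 months their changes were -0.16 and -0.070, and neither was called. The difference of the age effects was not called for either (adjusted p = 0.133 and 0.221).

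At 3 months, no member was called between the genotypes by edgeR's quasi-likelihood test, DESeq2 or the likelihood-ratio test (0 of 110), where the first called 0.0616% of the 16241 genes tested (0.0185% higher and 0.0431% lower). An unadjusted p under 0.05 was found for 9 members (8.18%), 6 higher and 3 lower, beside 5.02% of all genes (2.37% and 2.65%). The smallest p was that of Kcnk15, a two-pore channel of low level that was at 1.23, 1.19, 0.976 and 0.947 CPM in wild-type and 0.447, 0.655, 0.563 and 0.535 CPM in V338Y mice (-0.95 ± 0.28, adjusted p = 0.848). Kcnk15 passed the count filter in this comparison only through the wild-type mice. Kcnj10 was at 58.6, 48.2, 62.9 and 64.4 CPM in young wild-type and 82.2, 70.5, 138 and 91.6 CPM in young V338Y mice, without overlap, with a change of 0.72 ± 0.23, adjusted p = 0.926 and a 95% interval of 0.27 to 1.16. The groups did not overlap for 4 members (3.64%), beside 3.23% of all genes (1.37% higher and 1.86% lower). Cacna2d3 and Kcnt2, which followed by p, had changes of 0.17 and -0.25, with adjusted p of 0.926 for each. The 95% intervals of the genotype difference at 3 months were -0.048 to 0.27 for Scn8a and -0.23 to 0.27 for Kcnd2, and neither was called.

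Genes that work beside these channels were followed by fixed lists. The background in wild type was 62.8% of all genes called, 31.4% higher and 31.5% lower, with a median of -0.0050. In V338Y it was 48.8%, 23.1% higher and 25.7% lower, with a median of -0.029. Of 33 kept partners of these channels (ankyrins, spectrins, calmodulins, FGF homologous factors, HCN channels and others), 11 rose and 13 fell in wild type (median -0.022), and 4 rose and 11 fell in V338Y (median -0.050). The calmodulin genes Calm2 and Calm3, which bind Kv7, SK and calcium channels, fell in wild type (-0.80, adjusted p = 4.11e-16, and -0.60, adjusted p = 2.23e-13) and V338Y (-0.79, adjusted p = 5.65e-07, and -0.48, adjusted p = 0.000298). Of the 4 FGF homologous factors, which bind sodium channels, Fgf11, Fgf12 and Fgf14 fell by 0.56, 0.75 and 0.55 on the log2 scale in wild type (adjusted p = 1.41e-05, 3.52e-15 and 6.85e-10) and also fell in V338Y. Fgf13 rose in wild type (0.38, adjusted p = 2.01e-05) and was not called in V338Y (0.10, adjusted p = 0.600). Of 30 synaptic vesicle genes, 7 rose and 20 fell in wild type (median -0.20), and 3 and 13 in V338Y (median -0.14). Of 39 glutamate and GABA receptor genes, 17 rose and 13 fell in wild type (median -0.028), and 9 and 11 in V338Y (median -0.077).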

How the data were processed

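Brain RNA of 16 mice was sequenced, 4 in each of 4 groups, and grouped by the submitters' labels. The authors deposited 1 table of expected counts per Ensembl gene, not normalized, whose values of 10000 or more had been rounded by them to end in 0. The study's methods name RSEM with Ensembl genes, while the submitters' processing notes name bcl2fastq 1.8.4, STAR 2.4.2a, featureCounts and GRCm38, so which counter made the table is not settled. Gene symbols, positions and lengths were taken from GENCODE M21 (GRCm38).

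Genes that reached 10 counts in 2 or more mice of any 1 group were kept, which removes genes of low level in all groups. In each comparison the filter used the groups compared. Some members of low level passed it only through the group where they were higher, so the filter favoured their direction. Each pair of groups was tested with edgeR 4.0.16 (R 4.3.3) by the robust quasi-likelihood test after TMM normalization, and the difference of the age effects in a fit of all 16 mice. P-values were adjusted over all genes kept by Benjamini-Hochberg. The scripts were tested on simulated data. Alternatives were the likelihood-ratio test, DESeq2 1.42.0, other scalings and filters, all mice in 1 fit, length and GC trends removed with limma 3.58.1, the mean log2 CPM of cerebellum markers as a covariate, and each mouse left out. Nothing in the labels says how the mice were bred or housed, so p-values measure the spread between these animals.

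The members, gene lists and tests were chosen with earlier results of these data known. Named genes were those of a fixed list, the 2 largest rises and falls per family among called members with at least 50 mean normalized counts, called members or the 5 smallest p-values between genotypes, and members known from glia or vessels. Members named for mouse 14, and those left out, were picked after their values were seen. Results of some members are not reported here. Promoter sequences came from RefSeq (GRCm38.p6).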

Additional observations from a re-analysis of the deposited data

Results flagged for a closer look

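In 32 named genes, each group of 4 mice was tested for a mouse far from the other 3, and 4 of 128 groups passed Dixon's 95% critical value, where chance gives about 1 in 20. Kcnip4 passed in 3 of them. Young wild-type mouse 9 had 60.2 CPM of Kcnip4, beside 72.2 to 74.0 CPM in the other 3. Young V338Y mouse 14 had 72.0 CPM of Kcnip4, beside 73.8 to 73.9 CPM, a small gap in a narrow group. Old wild-type mouse 15 had 49.9 CPM of Kcnip4, beside 40.4 to 41.0 CPM. Scn1a was at 419 CPM in young wild-type mouse 11, beside 379.5 to 386 CPM in the other 3. The age call of Kcnip4 held without any 1 of the 8 mice in each genotype.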

How the results depend on the processing

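Called members numbered between 65 and 79 of wild-type and between 35 and 57 of V338Y mice with age under most settings, leave-one-out fits included, and 0 for the difference of the age effects. Over all genes, between 41.4% and 65.2% were called in wild type and between 30.9% and 53.6% in V338Y under these settings. With the cerebellum score as a covariate, called members were 1 in wild type, 25 in V338Y and 1 for the difference of the age effects. The shares of all genes called there were 0.708%, 26.2% and 0.814%. With all 16 mice and that covariate, 49 members were called in wild type (37.7% of all genes). Between the genotypes, that fit called 1 member at 19 months (1.25% of all genes) and 2 (Kcnt2 and Kcnh7) at 3 months (0.394%). At 19 months, the count between the genotypes was 6 of 111 by library size alone (3.78% of all genes) and 9 of 112 with no count filter (3.06%). It was 1 of 111 with all 16 mice in 1 fit (0.731%). With a mouse left out, it was lowest at 1 without old wild-type mouse 13 (1.79% of all genes) or old V338Y mouse 19 (1.78%). The highest count was 6, without old wild-type mouse 12 (3.73%). Of the named members called with age, 49 of 57 in wild type and 31 of 38 in V338Y were called in every leave-one-out fit.

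Under the cerebellum covariate these log2 fold changes took the other sign in wild type: Kcnh5 -0.022, Kcne1l -0.046, Cacna1c -0.22, Cacna1i -0.22, Cacna2d3 -0.33, Cacna1b -0.35, Kcnj16 -0.35, Kcnc2 -0.48, Kcng3 -0.56, Scn3a -0.89, Kcnh4 -0.89, Kcnj2 -1.36, Kcnk13 -1.59, Kcns1 -3.41, Kcnip1 0.041, Cacnb4 0.14, Kcnj3 0.29, Kcnk1 0.34, Kcnd2 0.39, Cacna1g 0.50, Cacna2d2 0.63, Kcnip4 0.91 and Kcnk10 1.90. The score leaves no overlap between young and old wild-type mice. In V338Y they were Kcnj2 -0.060, Kcnh7 -0.19, Kcnd2 0.015, Kcnj12 0.12, Kcng4 0.18 and Kcnk10 0.24. With length and GC trends removed, Cacna2d1 was -0.022 and Cacna1b -0.045 in wild type, and with mouse 14 as the only young mouse, an alternative chosen after seeing the data as was the fit of all mice with the covariate, Kcnh7 was -0.027. The cause was not tested. No paired analysis was possible because the mouse numbers name different animals and the compared groups share at most 1 number. Members with few counts, such as Cacna1s and Kcnk15, are limited by depth.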
